A study of Mus musculus with 36 samples.

Results

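Txnip, Gm15441 and Arrdc4 are 3 of the 36856 mouse gene symbols counted in this series, and their transcripts were followed here over all 36 libraries. The 3 genes were chosen by their measured levels across the 12 groups of these same libraries, so their levels and differences are given as a description, with no test. Each passed the filter on low counts. Txnip encodes thioredoxin-interacting protein, an alpha-arrestin that binds thioredoxin and lowers glucose uptake. Gm15441 is a long noncoding transcript read from the opposite strand of the Txnip locus, and Arrdc4 encodes the alpha-arrestin most closely related to the Txnip product.

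The libraries came from mouse embryonic fibroblasts (MEF), a cultured cell, that were either WT or PERK -/-. PERK is the kinase, encoded by Eif2ak3, that phosphorylates eIF2 alpha when proteins misfold in the endoplasmic reticulum (ER). Each genotype received DMSO as vehicle, thapsigargin (an inhibitor of the calcium pump of the ER, which causes ER stress), BtdCPU (an activator of the eIF2 alpha kinase HRI), halofuginone (an inhibitor of prolyl-tRNA synthetase, which activates the eIF2 alpha kinase GCN2), BtdCPU with thapsigargin, or halofuginone with thapsigargin. There were 3 libraries in each of the 12 groups, and PERK -/- cells were compared with WT cells given the same agent. Doses, treatment times, the origin of each cell line and whether a line is 1 clone are not given in the sources used here, so a difference between genotypes and a difference between 2 cell lines cannot be told apart. Nothing in the labels says that replicates came from separate cultures, and p-values below measure only the spread between these libraries.

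Txnip and Arrdc4 are textbook targets of the sugar-sensing factors MondoA (Mlxip) and ChREBP (Mlxipl), which pair with Mlx and bind a carbohydrate response element made of a pair of E-box-like half-sites. When sugar phosphates accumulate, the factors enter the nucleus and raise both genes, and the arrestin proteins in turn help to remove glucose transporters from the cell surface. The Txnip protein is also a target of the ubiquitin ligase Itch, an inhibitor of reduced thioredoxin and a partner of the NLRP3 inflammasome, and its transcript is known to rise under ER stress. In liver, Gm15441 is a known target of the nuclear receptor PPAR alpha.

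The promoter sequences of Txnip and Arrdc4 are shown because the 2 genes kept the same order of treatments within each genotype (values below), while only Txnip holds the paired half-sites in this window. RefSeq (GRCm38.p6) has 1 promoter entry for Txnip and 1 for Arrdc4, each of 300 bases, and the 250 bases before the start site are printed 5′ to 3′ on the gene's own strand. Capitals mark the matches to the motifs searched on both strands: the CCAAT box (CCAAT or ATTGG), a forkhead core (GTAAACA or TGTTTAC), the E-box CACGTG, and E-box half-sites 5 bases apart (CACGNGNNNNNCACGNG, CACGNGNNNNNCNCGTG, CNCGTGNNNNNCACGNG or CNCGTGNNNNNCNCGTG).
Txnip promoter, chr3:96557707-96557956, plus strand: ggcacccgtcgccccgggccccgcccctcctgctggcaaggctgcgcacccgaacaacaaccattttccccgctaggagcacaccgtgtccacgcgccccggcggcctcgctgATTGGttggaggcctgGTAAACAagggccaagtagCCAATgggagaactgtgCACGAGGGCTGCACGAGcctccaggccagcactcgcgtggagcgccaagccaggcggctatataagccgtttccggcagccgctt
Arrdc4 promoter, chr7:68749239-68749488, minus strand: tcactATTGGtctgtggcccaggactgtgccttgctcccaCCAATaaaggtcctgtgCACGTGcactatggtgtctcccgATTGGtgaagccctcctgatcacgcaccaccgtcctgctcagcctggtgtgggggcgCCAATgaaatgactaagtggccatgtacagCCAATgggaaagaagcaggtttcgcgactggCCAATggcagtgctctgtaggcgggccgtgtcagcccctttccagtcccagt

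In Txnip the paired half-sites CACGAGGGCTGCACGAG began 85 bases upstream of the start site, the CCAAT boxes 137 and 102 bases upstream, and the forkhead core between them at 121 bases. Arrdc4 held 6 CCAAT boxes, the nearest 52 bases upstream and the farthest 245, and 1 E-box at 193 bases. Among 32851 RefSeq promoter windows of 300 bases, 27 (0.082%) held the paired half-sites, against 37.4% with a CCAAT box, 7.15% with the E-box and 3.65% with the forkhead core. An E-box and a pair of half-sites can overlap in these searches, and in these 2 windows they did not. A further core bound by C/EBP and ATF factors (TGATGNAA or TTNCATCA), present in 3.97% of windows, was in neither. These matches describe letters in a window, and binding was not measured.

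Txnip and Gm15441 share sequence, and the deposited counts show it. In the GENCODE M21 annotation (GRCm38) Txnip (ENSMUSG00000038393.14) has 3123 exon bases on the plus strand of chromosome 3 and Gm15441 (ENSMUSG00000074398.5) has 1676 on the minus strand. Their exons overlap in 606 bases, which is 19.4% of Txnip and 36.2% of Gm15441. One run of 441 bases starts at the first base of transcript Txnip-202, and the other is a run of 165 bases that lies whole within the coding sequence, at bases 946 to 1110 of that transcript. This second run is printed on the Txnip strand because reads from it can be assigned to 1 of the 2 genes only by strand.
Shared exon, chromosome 3, GRCm38, plus strand: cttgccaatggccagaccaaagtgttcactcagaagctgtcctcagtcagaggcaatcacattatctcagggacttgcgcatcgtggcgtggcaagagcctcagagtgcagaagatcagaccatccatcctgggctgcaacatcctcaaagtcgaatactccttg

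In all 36 libraries the deposited values of both Txnip and Gm15441 were not whole numbers, while their sum was whole to within 0.0011, and Arrdc4 was whole in 36 of 36. The sum ran from 96 to 26324 estimated counts per library, a 274-fold range. Over that range the share assigned to Txnip stayed between 67.1% and 80.4%, with a median of 76.6%. The library labels name a strand-specific kit, and whether the counting used strand is not given in the sources used here. Levels of Gm15441 are therefore uncertain throughout: reads of the gene and of its antisense partner cannot be told apart in these values, and the 2 series below are not independent of each other.

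**Figure D1:**
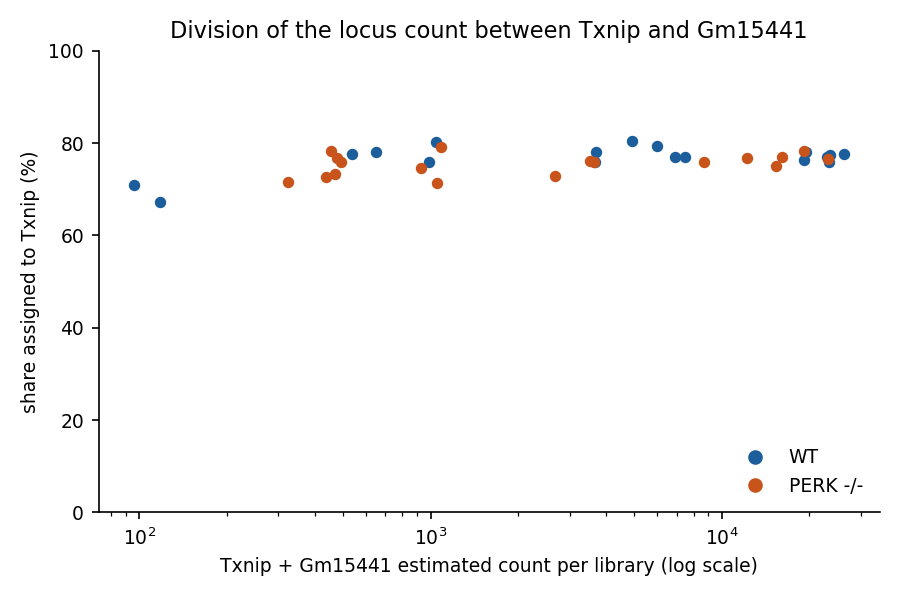
Share of the combined Txnip and Gm15441 estimated count that was assigned to Txnip (percent, y axis) against the combined count of the library (log scale, x axis), 1 point per library, coloured by genotype. The 36 points lie between 67.1% and 80.4% over a 274-fold range of the combined count.

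Libraries held 32454257 to 37178107 counts. Txnip had 68.2 to 20428 estimated counts in a library, Gm15441 27.8 to 5896 and Arrdc4 17 to 1707, so none of the 3 was at a count of 0 in any library. Eif2ak3, the targeted gene, had a mean of 31.1 ± 1.10 CPM (SD over the 3 libraries) in WT cells given DMSO and 9.95 ± 0.760 CPM in PERK -/- DMSO libraries, where CPM is the count relative to the TMM-scaled library size. Which part of Eif2ak3 is deleted is not given in the sources used here, so the remaining counts do not check the protein. Of 8 fibroblast markers, 8 passed the filter and summed to 12852 to 38737 CPM per library, whereas 5 macrophage and leukocyte markers summed to 2.23 to 22.9 CPM, of which Csf1r alone reached 19.1 CPM and Ptprc at most 0.956 CPM. The epithelial, endothelial and hepatocyte markers summed to at most 1.76, 5.06 and 0.405 CPM. WT BtdCPU replicate 2 stood apart from the other 2 libraries of its group for Txnip and Gm15441, and lay nearer the WT DMSO libraries on the second principal component of log2 CPM (-85.2, against -66.8 and -72.8 for its group and -92.6 to -89.0 for WT DMSO). Differences of the 3 genes against its group are given with and without it.

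**Figure D2:**
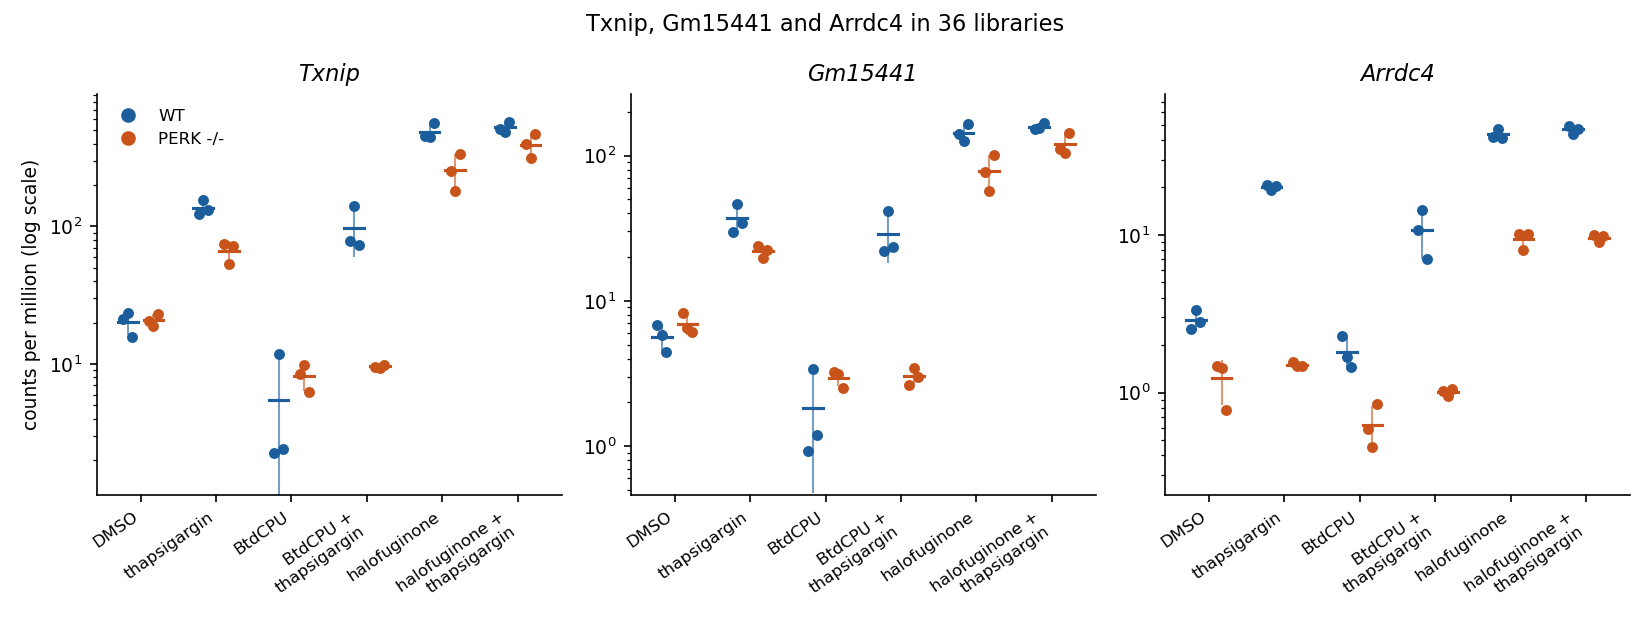
Level in CPM (log scale) of Txnip, Gm15441 and Arrdc4 in WT and PERK -/- cells for the 6 treatments; points are libraries, horizontal bars group means and vertical bars 1 SD (n = 3), and the lower end of the Txnip bar for WT BtdCPU lies beyond the axis. Within each genotype the group means are lowest with BtdCPU and highest with halofuginone and thapsigargin together, and for Arrdc4 the PERK -/- libraries lie below the WT libraries under every treatment.

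Under DMSO the 2 genotypes had like levels of Txnip and different levels of Arrdc4. Txnip was at 21.4, 23.5 and 15.7 CPM in the WT replicates 1, 2 and 3 and at 20.6, 19.0 and 23.2 CPM in the PERK -/- replicates. Gm15441 was at 6.77, 5.82 and 4.43 CPM in WT and 8.28, 6.50 and 6.10 CPM in PERK -/- cells. For both genes the groups overlapped, with a log2 difference (PERK -/- minus WT, ± SE of the fit) of 0.05 ± 0.33 for Txnip and 0.29 ± 0.28 for Gm15441. Arrdc4 was at 2.51, 3.32 and 2.79 CPM in WT and at 1.48, 1.43 and 0.780 CPM in PERK -/- cells, where every library was below every WT library. Its mean was 2.34-fold lower and the log2 difference -1.22 ± 0.23. In bulk RNA, fewer cells that express a gene and less of its RNA per cell cannot be told apart. So 1 of the 3 genes was lower without overlap between the genotypes, as were 28.3% of the 16065 genes tested. Such shares of all tested genes are given beside the first count of each comparison below, and nothing is read from them, because all of these groups were in view when the genes were chosen.

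Thapsigargin libraries were higher than DMSO libraries for all 3 genes in WT cells, and for Txnip and Gm15441 but not Arrdc4 in PERK -/- cells. In WT cells Txnip was at 122, 155 and 133 CPM, 6.76-fold the DMSO mean, with a log2 difference of 2.76 ± 0.34. Gm15441 was at 29.9, 46.5 and 34.3 CPM (2.70 ± 0.27), and Arrdc4 was at 20.6, 19.2 and 20.5 CPM (2.81 ± 0.20), 7.0-fold its DMSO mean. For all 3 genes each thapsigargin library was above each DMSO library (26.7% of tested genes were higher in this way). PERK -/- cells held Txnip at 75.1, 53.1 and 71.8 CPM (1.67 ± 0.33) and Gm15441 at 23.8, 19.7 and 22.5 CPM (1.66 ± 0.26), both without overlap with DMSO (2 of the 3 genes, and 26.5% of tested genes). Arrdc4 was at 1.57, 1.47 and 1.47 CPM, which overlapped its DMSO libraries, with a log2 difference of 0.29 ± 0.24. The PERK -/- difference minus the WT difference was -1.09 ± 0.46 for Txnip, -1.04 ± 0.37 for Gm15441 and -2.51 ± 0.31 for Arrdc4. Between genotypes under thapsigargin all 3 genes were lower without overlap in PERK -/- cells (35.5% of tested genes), by 2.05-fold for Txnip and 13.4-fold for Arrdc4.

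BtdCPU alone went the other way. In WT cells Txnip was at 2.24, 11.8 and 2.41 CPM, all below the DMSO libraries, with a log2 difference of -1.86 ± 0.36. Replicate 2 was 5.28 times replicate 1 here, and without it the log2 difference was -3.12 and the mean 2.32 CPM in place of 5.49. Gm15441 was at 0.923, 3.40 and 1.19 CPM (-1.60 ± 0.31, and -2.42 without replicate 2). Arrdc4 was at 2.27, 1.67 and 1.46 CPM (-0.68 ± 0.22, and -0.63 without replicate 2), and in this gene replicate 2 did not stand apart. Each of the 3 genes was lower without overlap (13.5% of tested genes).

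Given BtdCPU, PERK -/- cells had libraries below DMSO for Txnip and Gm15441. Txnip was at 8.48, 9.91 and 6.30 CPM (-1.35 ± 0.34) and Gm15441 at 3.21, 3.12 and 2.53 CPM (-1.24 ± 0.29), both below all DMSO libraries. Arrdc4 was at 0.589, 0.449 and 0.842 CPM (-0.97 ± 0.27), where the highest BtdCPU library overlapped the lowest DMSO library. Thus 2 of the 3 genes were lower without overlap (11.9% of tested genes). The difference of the 2 genotypes' responses was 0.51 ± 0.49 for Txnip, 1.77 without WT BtdCPU replicate 2, and -0.29 ± 0.35 for Arrdc4, -0.34 without that library. Between genotypes under BtdCPU only Arrdc4 of the 3 was lower without overlap (27.6% of tested genes), with a log2 difference of -1.52 ± 0.26, a WT mean 2.88 times the PERK -/- mean and 2.98 times without WT BtdCPU replicate 2. Txnip and Gm15441 overlapped between genotypes there, with PERK -/- minus WT differences of 0.57 ± 0.36 and 0.66 ± 0.33. The WT mean of Txnip was 0.667 times the PERK -/- mean, and 0.282 times without WT BtdCPU replicate 2. For Gm15441 these ratios were 0.623 and 0.358.

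Within each genotype, halofuginone libraries had the highest levels of all single treatments. In WT cells Txnip was at 454, 446 and 563 CPM, 24.2-fold the DMSO mean (4.59 ± 0.37), and Gm15441 at 140.2, 125 and 165 CPM (4.66 ± 0.29). Arrdc4 was at 41.9, 46.8 and 41.4 CPM, 15.1-fold its DMSO mean (3.91 ± 0.20). All 3 were higher without overlap (34.3% of tested genes). PERK -/- cells held Txnip at 252, 181 and 339 CPM (3.62 ± 0.35) and Gm15441 at 76.5, 57.4 and 101 CPM (3.49 ± 0.27). Arrdc4 was at 10.1, 8.05 and 10.1 CPM (2.93 ± 0.22), so again all 3 were higher without overlap (26.6% of tested genes). The genotype difference of this response was about the same size for each gene, -0.97 ± 0.46 for Txnip, -1.16 ± 0.37 for Gm15441 and -0.98 ± 0.29 for Arrdc4. Under halofuginone all 3 genes were lower in PERK -/- than in WT cells without overlap (35.3% of tested genes), Arrdc4 by 4.61-fold and Txnip by 1.90-fold.

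**Figure D3:**
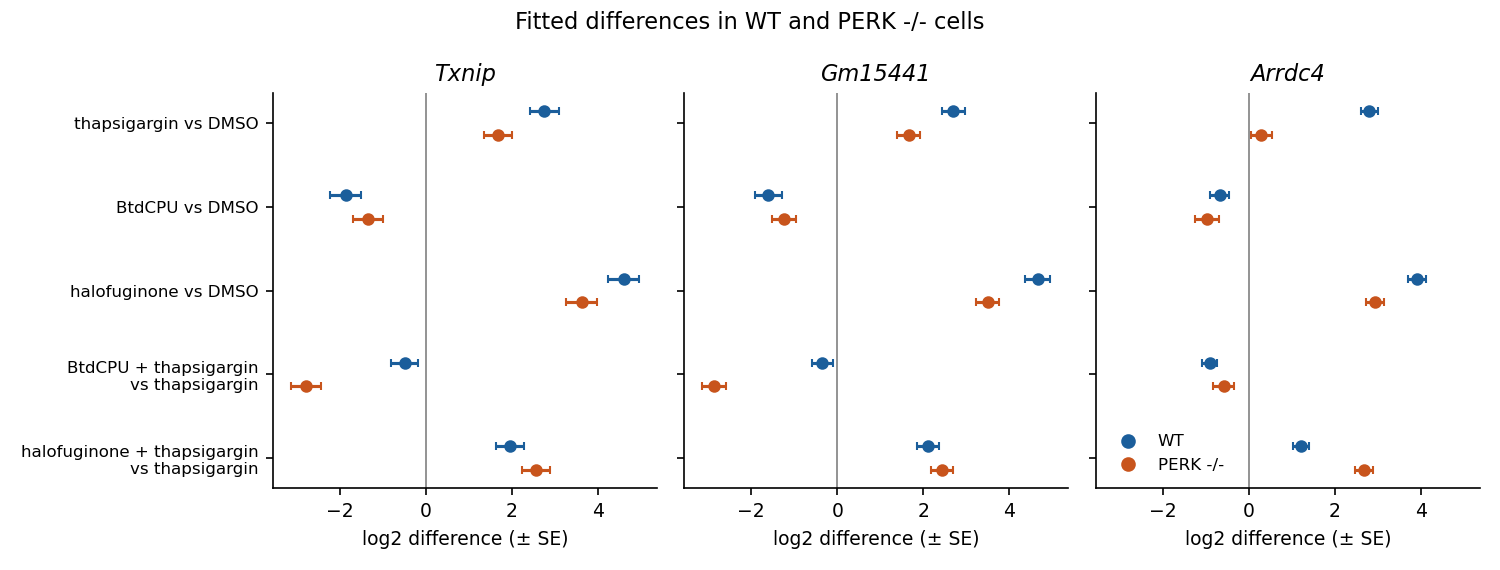
Fitted log2 differences (x axis, bars are 1 SE) of Txnip, Gm15441 and Arrdc4 for the 5 comparisons of treatments within WT and within PERK -/- cells. The genotypes lie far apart for Txnip and Gm15441 when BtdCPU is combined with thapsigargin, and for Arrdc4 under thapsigargin.

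The 2 combinations with thapsigargin separated the genotypes in different ways. With BtdCPU and thapsigargin together, WT cells held Txnip at 78.3, 139.8 and 73.6 CPM, which overlapped the thapsigargin libraries, although it was lower in each of the 3 same-numbered pairs (-0.49 ± 0.32). Gm15441 behaved alike at 22.1, 41.6 and 23.5 CPM (-0.34 ± 0.25). Arrdc4 was at 10.7, 14.4 and 7.04 CPM, below all thapsigargin libraries (-0.91 ± 0.18), which makes 1 of the 3 genes lower without overlap (9.2% of tested genes).

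In PERK -/- cells given both agents, Txnip was at 9.53, 9.39 and 9.92 CPM, 6.94-fold below the thapsigargin mean (-2.79 ± 0.35). Gm15441 was at 2.65, 3.43 and 3.00 CPM (-2.86 ± 0.28), and Arrdc4 at 1.02, 0.953 and 1.05 CPM (-0.58 ± 0.24). All 3 genes were lower without overlap (28.3% of tested genes). Against DMSO, the combination left Txnip and Gm15441 on opposite sides in the 2 genotypes. WT libraries were above DMSO without overlap for all 3 genes (29.4% of tested genes), with a Txnip log2 difference of 2.27 ± 0.34. PERK -/- libraries were below DMSO for 2 of the 3 (23.7% of tested genes), with -1.12 ± 0.34 for Txnip and -1.20 ± 0.29 for Gm15441. The genotypes' responses to BtdCPU over thapsigargin differed by -2.30 ± 0.46 for Txnip, -2.52 ± 0.37 for Gm15441 and 0.33 ± 0.30 for Arrdc4. Here the PERK -/- levels were 10.1-fold below WT for Txnip and 10.6-fold for Arrdc4, and all 3 genes were lower without overlap (34.5% of tested genes).

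Seen from the BtdCPU libraries, adding thapsigargin went with more Txnip in WT cells (4.13 ± 0.37, all 3 genes higher without overlap, 23.1% of tested genes). The Txnip mean was 17.7-fold higher, and 41.8-fold without WT BtdCPU replicate 2. For Arrdc4 these folds were 5.95 and 5.74. In PERK -/- cells it did not (0.22 ± 0.35, overlapping libraries), and only Arrdc4 of the 3 was higher without overlap (21% of tested genes), from 0.626 ± 0.199 CPM to 1.01 ± 0.0510 CPM (SD, n = 3).

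With halofuginone and thapsigargin together, WT cells held Txnip at 509.6, 488 and 579 CPM, Gm15441 at 153, 154 and 167 CPM and Arrdc4 at 49.3, 43.5 and 47.1 CPM. Against thapsigargin alone the log2 differences were 1.94 ± 0.33, 2.10 ± 0.25 and 1.21 ± 0.18 in that order, and all 3 were higher without overlap (25.3% of tested genes). Against halofuginone alone all 3 genes overlapped, and none was apart (25.8% of tested genes were, in either direction). The Txnip difference there was 0.11 ± 0.31.

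The same combination in PERK -/- cells held Txnip at 395, 315 and 468 CPM, Gm15441 at 110.2, 104 and 144 CPM and Arrdc4 at 9.93, 9.0 and 9.83 CPM. Against thapsigargin alone the differences were 2.56 ± 0.33, 2.44 ± 0.26 and 2.67 ± 0.21, with all 3 genes higher without overlap (30.0% of tested genes). Against halofuginone alone only Gm15441 was higher without overlap (12.4% of tested genes), by 0.61 ± 0.24. Txnip was higher in each same-numbered pair by 0.61 ± 0.32 with overlapping groups, and Arrdc4 differed by 0.03 ± 0.18. Between genotypes Txnip was 1.34-fold lower in PERK -/- cells and Arrdc4 4.86-fold lower, and all 3 genes were lower without overlap (35.2% of tested genes). The genotype difference of the response over thapsigargin was 0.61 ± 0.45 for Txnip and 1.46 ± 0.27 for Arrdc4.

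Ordered by group mean, Txnip and Gm15441 followed the same sequence of 12 groups. From the lowest it ran WT BtdCPU, PERK -/- BtdCPU, PERK -/- BtdCPU with thapsigargin, WT DMSO, PERK -/- DMSO, PERK -/- thapsigargin, WT BtdCPU with thapsigargin, WT thapsigargin, PERK -/- halofuginone, PERK -/- halofuginone with thapsigargin, WT halofuginone and WT halofuginone with thapsigargin. For Txnip, neighbours in this order overlapped except at 3 places, just below WT DMSO, just below PERK -/- thapsigargin and just below PERK -/- halofuginone. Gm15441 had a further gap between the PERK -/- groups with halofuginone and with halofuginone and thapsigargin. These gaps left 4 runs of Txnip groups, with means of 5.49 to 9.61 CPM, 20.2 to 20.9 CPM, 66.7 to 137 CPM and 257 to 525 CPM. Groups within a run were not all at 1 level. PERK -/- thapsigargin libraries (53.1 to 75.1 CPM) lay apart from WT thapsigargin libraries (122 to 155 CPM). PERK -/- halofuginone libraries (181 to 339 CPM) lay apart from WT halofuginone libraries (446 to 563 CPM). Arrdc4 was ordered differently: its lowest 4 groups were all PERK -/-, at 0.626 ± 0.199 CPM (BtdCPU), 1.01 ± 0.0510 CPM (BtdCPU with thapsigargin), 1.23 ± 0.390 CPM (DMSO) and 1.5 ± 0.0584 CPM (thapsigargin), each mean with its SD (n = 3). The highest PERK -/- mean of Arrdc4, 9.58 ± 0.510 CPM, was below the WT thapsigargin mean of 20.1 ± 0.764 CPM.

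Txnip and Arrdc4 kept 1 order of treatments within each genotype but not 1 ratio between genotypes. Over the 6 group means of log2 CPM the Spearman correlation of the 2 genes was 1 in WT and 1 in PERK -/- cells, with Pearson r of 0.983 and 0.958. Some neighbours in these orders overlapped and were nearly tied. In PERK -/- cells adding thapsigargin to BtdCPU changed Txnip by 0.22 ± 0.35, and adding it to halofuginone changed Arrdc4 by 0.03 ± 0.18. In WT cells halofuginone with and without thapsigargin overlapped for both genes. Over all 12 group means Pearson r was 0.877 and Spearman's rho 0.839. The points share libraries and scaling, and each is a mean of 3 libraries, so these are descriptions. Per kilobase of exon (GENCODE M21), the Txnip level was 9.15 ± 1.85 times (SD, n = 3) the Arrdc4 level in WT DMSO libraries and 24.6 ± 12.1 times in PERK -/- DMSO libraries. Under thapsigargin this ratio of levels per kilobase was 8.82 ± 1.42 in WT and 57.2 ± 9.22 in PERK -/- libraries, and under BtdCPU with thapsigargin it was 11.8 ± 2.13 and 12.3 ± 0.350. The combination with BtdCPU was the only treatment under which library ranges of this ratio overlapped between genotypes. Under every other treatment, DMSO included, each PERK -/- library had a higher ratio than each WT library. Halofuginone libraries ranged from 12.3 to 17.6 (WT) and from 29.1 to 43.4 (PERK -/-). When thapsigargin was added to halofuginone, these ranges were 13.4 to 15.9 and 45.3 to 61.5. The ranges lay close with BtdCPU alone, at 1.28 to 9.14 (WT) and 9.68 to 28.5 (PERK -/-).

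The 3 genes differed in how far apart the replicates of a group lay. For Txnip the highest library was 5.28 times the lowest with BtdCPU in WT cells, 1.90 times with BtdCPU and thapsigargin in WT cells and 1.87 times with halofuginone in PERK -/- cells. In the other 9 groups it was at most 1.57 times the lowest, and with BtdCPU and thapsigargin in PERK -/- cells only 1.06 times. In both WT groups given BtdCPU, replicate 2 had the highest Txnip and Gm15441. Arrdc4 followed this with both agents, where replicate 2 was highest at 14.4 CPM, and not with BtdCPU alone. For Arrdc4 the widest groups were BtdCPU with thapsigargin in WT cells, where the highest library was 2.05 times the lowest, and DMSO and BtdCPU in PERK -/- cells, at 1.89 and 1.87 times. With thapsigargin the highest was 1.07 times the lowest in WT cells and 1.07 times in PERK -/- cells, so that the genotypes, 13.4-fold apart there, were each tight.

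Because reads of Txnip and Gm15441 may be shared, the 2 counts were also added together and fitted as 1 gene. The sum had log2 differences of 2.74 with thapsigargin, -1.81 with BtdCPU and 4.61 with halofuginone in WT cells, and of 1.67, -1.32 and 3.59 in PERK -/- cells. Each lay within 1 SE of the difference of Txnip counted alone. Txnip made up 67.1% to 80.4% of the sum in every library, so the 2 differences could not lie far apart. Their closeness therefore does not check whether reads were shared. The share assigned to Txnip had its lowest mean with BtdCPU in WT cells, at 71.0%, 77.6% and 67.1% in replicates 1, 2 and 3, so replicate 2 stood above the other 2 here too. It was 73.4% ± 2.34 (SD, n = 3) with BtdCPU in PERK -/- cells and highest with thapsigargin in WT cells, at 78.9% ± 1.81. Per kilobase of exon, Gm15441 was at 3.38 CPM and Txnip at 6.47 CPM in WT DMSO libraries, and Arrdc4 at 0.711 CPM. With halofuginone in WT cells these levels per kilobase were 85.5, 156 and 10.7 CPM in the same order, with the 3 genes ranked alike in both groups.

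**Figure D4:**
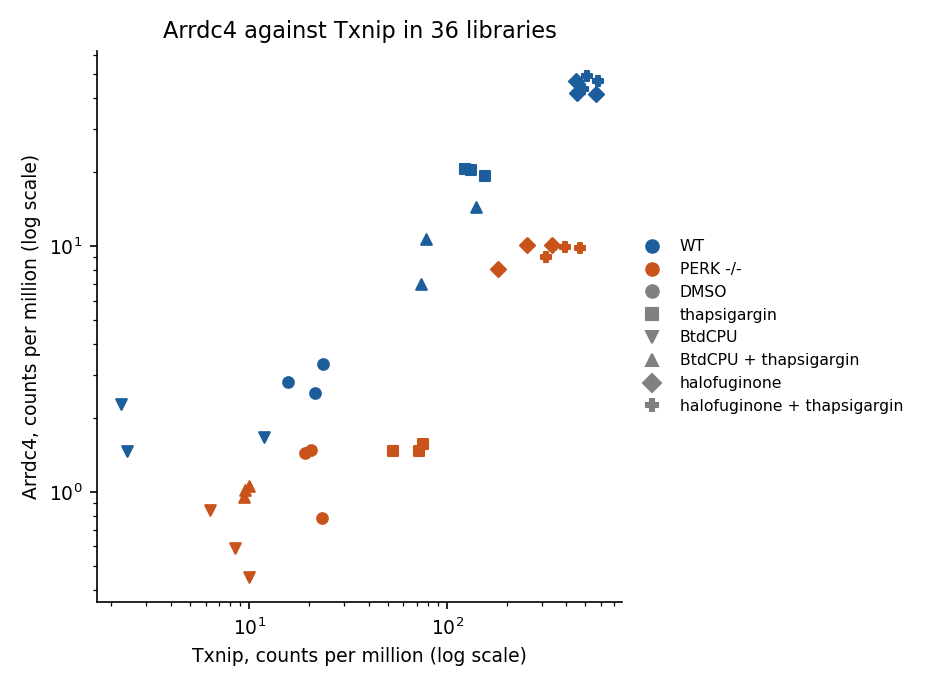
Arrdc4 against Txnip in CPM (both axes on a log scale), 1 point per library, coloured by genotype and shaped by treatment. At like Txnip levels most PERK -/- libraries hold less Arrdc4 than WT libraries. Per kilobase of exon, PERK -/- libraries given BtdCPU with thapsigargin had 12.1 to 12.7 times as much Txnip as Arrdc4. For WT libraries given both agents this ratio was 9.45 to 13.5. The lowest PERK -/- ratios with BtdCPU alone (9.68) and DMSO (17.2) also lie within the range of all WT libraries, 1.28 to 17.6.

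The other genes of the pathway were tested with edgeR's quasi-likelihood test, with Benjamini-Hochberg adjustment over all 16065 genes and a threshold of 0.05. The other arrestins come first, since they share the fold of Txnip and Arrdc4 and act as adaptors between membrane proteins and ubiquitin ligases (5 of 6 passed the filter). None of these 5 rose with both thapsigargin and halofuginone in WT cells. With thapsigargin in WT cells 0 of the 5 rose and 3 fell (47.6% of all tested genes were called in either direction), among them Arrdc3, an adaptor of the beta-adrenergic receptor, at -0.82 ± 0.19 (adjusted p = 6.34e-04). With halofuginone in WT cells 1 rose and 4 fell (68.2% of all genes were called). Arrdc3 was the 1 that rose, from 28.9 ± 2.87 CPM to 69.2 ± 7.0 CPM (SD, n = 3), at 1.26 ± 0.19 (adjusted p = 6.12e-07). Arrdc1, which takes part in the budding of vesicles at the plasma membrane, fell at -1.54 ± 0.15 (adjusted p = 1.24e-10), and the beta-arrestin Arrb1 at -1.82 ± 0.24 (adjusted p = 5.19e-08).

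Thapsigargin in PERK -/- cells raised 2 of the 5 and lowered none (27.9% of all genes were called), and these were Arrdc1 and Arrdc2. Halofuginone raised none and lowered 4 (42.2% of all genes), namely Arrb1, Arrb2, Arrdc1 and Arrdc2, which also fell with it in WT cells. Arrdc1 was at -0.65 ± 0.15 (adjusted p = 7.12e-04). BtdCPU over thapsigargin lowered 4 (35.6% of all genes) and raised 1, a call lost without BtdCPU with thapsigargin replicate 2 or thapsigargin replicate 2 or 3. Arrdc3 was among those that fell, at -1.07 ± 0.19 (adjusted p = 3.71e-05). Under DMSO 2 of the 5 were higher and 2 lower in PERK -/- than in WT cells (49.5% of all genes), and Arrdc2 was lower like Arrdc4, at -0.82 ± 0.23 (adjusted p = 0.00362), while Arrdc3 was higher, at 0.86 ± 0.19 (adjusted p = 2.61e-04). The genotypes differed in the response of Arrdc3 to halofuginone, by -1.02 ± 0.26 (adjusted p = 0.00289), in a contrast that called 3 arrestins higher, 1 lower and 35% of all genes. For the response to thapsigargin the contrast of genotypes called 2 arrestins higher and none lower (38.1% of all genes). No arrestin was called for the genotype difference in the response to BtdCPU, where 0.199% of all genes were. There 1 of the 5 had an unadjusted p under 0.05 in edgeR, and DESeq2 called 0.

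The factors that act on the Txnip promoter in textbook accounts belong to the MLX and MAX network. Of its 13 listed genes 12 passed the filter, and Mlxipl, the gene of ChREBP, did not. In WT cells 47.6% of all genes were called in either direction with thapsigargin and 68.2% with halofuginone. With thapsigargin in WT cells 7 of these 12 rose and 2 fell (median log2 difference 0.59, against 0.02 over all genes), and with halofuginone 6 rose and 2 fell (0.41, against 0.00 over all genes). Among the genes that changed most were Myc, a growth factor-responsive activator, at 2.80 ± 0.20 (adjusted p = 1.25e-13) under halofuginone, and Mxd4, a repressor that pairs with Max, at -3.37 ± 0.25 (adjusted p = 2.63e-13). Mlx itself, the partner of MondoA, differed little: over thapsigargin, halofuginone changed it by 0.45 ± 0.10 (adjusted p = 7.63e-04) in WT and by 0.43 ± 0.10 (adjusted p = 7.69e-04) in PERK -/- cells. In PERK -/- cells Mlx was at 35.8 ± 2.51 CPM (SD, n = 3) with DMSO and 26.8 ± 0.824 CPM with thapsigargin. With halofuginone and thapsigargin it was at 36.2 ± 0.686 CPM, near its DMSO level. Under DMSO Mlx was higher in PERK -/- than in WT cells, by 0.50 ± 0.10 (adjusted p = 1.65e-04), and Mlxip was lower, at -0.46 ± 0.16 (adjusted p = 0.0180). Mlxip, the gene of MondoA, had a log2 difference of 0.48 ± 0.16 with halofuginone in WT cells, a call that was lost without WT halofuginone replicate 3 (0.26) and without WT DMSO replicate 1 (0.40) or 2 (0.39).

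Most other textbook targets of MondoA and ChREBP fell in WT cells with thapsigargin and with halofuginone, where Txnip and Arrdc4 were high. Of 17 listed, 13 passed the filter. Of all tested genes, 47.6% were called in either direction with thapsigargin and 68.2% with halofuginone in WT cells. With thapsigargin in WT cells 8 of the 13 fell (median log2 difference -0.56) and 2 rose, of which 1 call was lost without any 1 of the 3 DMSO libraries or without thapsigargin replicate 2 or 3, and with halofuginone 3 rose and 8 fell (median -1.26). Acly, which makes cytosolic acetyl-CoA for fatty acid synthesis, fell with thapsigargin at -1.0 ± 0.10 (adjusted p = 2.10e-09) and with halofuginone at -2.04 ± 0.11 (adjusted p = 1.89e-16). Elovl6, a fatty acid elongase, fell at -2.67 ± 0.21 (adjusted p = 1.92e-12) with halofuginone. Klf10, a transcription factor gene, rose at 2.73 ± 0.24 (adjusted p = 1.90e-11). In PERK -/- cells thapsigargin raised 4 of the 13 (2 without thapsigargin replicate 3) and lowered none, whereas halofuginone raised 2 and lowered 7, with Acly at -1.15 ± 0.10 (adjusted p = 2.37e-10). Acly and Elovl6 were lower, and Klf10 higher, in the same WT halofuginone libraries in which Txnip was 24.2-fold higher. With BtdCPU over thapsigargin in PERK -/- cells, where Txnip was lower, 1 of the 13 rose and 4 fell. The activity of MondoA and ChREBP was not tested.

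Genes of the thioredoxin system, the partners of the Txnip protein, mostly fell with halofuginone in WT cells. All 12 listed passed the filter. With halofuginone in WT cells 8 fell and 2 rose (median -0.78, against 0.00 over all genes), and 68.2% of all genes were called in either direction. Only 1 rose without halofuginone replicate 1 or 2 or without DMSO replicate 2. With halofuginone over thapsigargin in WT cells none rose and 9 fell (45.3% of all genes were called in either direction). Txn1, cytosolic thioredoxin, fell at -1.02 ± 0.17 (adjusted p = 4.22e-06) with halofuginone and at -0.89 ± 0.17 (adjusted p = 6.59e-05) with thapsigargin. The peroxiredoxins, which use thioredoxin to reduce peroxides, moved further: Prdx2 fell at -2.55 ± 0.11 (adjusted p = 4.67e-18) and Prdx1 at -1.98 ± 0.25 (adjusted p = 3.88e-08) with halofuginone. With thapsigargin 4 of the 12 fell in WT cells (median -0.08) and 1 rose (0 without thapsigargin replicate 3 or DMSO replicate 2, and 2 without thapsigargin replicate 1 or DMSO replicate 3). In PERK -/- cells thapsigargin raised none and lowered 2 (1 without thapsigargin replicate 1 or DMSO replicate 1 or 3). Halofuginone in PERK -/- cells lowered 4, with Txn1 at -0.71 ± 0.17 (adjusted p = 9.78e-04), and raised 1 (0 without DMSO replicate 2, 2 without DMSO replicate 3 and 3 without halofuginone replicate 3). Txn1 was not called with thapsigargin in PERK -/- cells, and the genotype difference of that response was 0.90 ± 0.24 (adjusted p = 0.00329). BtdCPU over thapsigargin in PERK -/- cells lowered 3 of the 12 (1 without BtdCPU with thapsigargin replicate 3) and raised 1 (2 without its replicate 2). Txn1 was at -0.58 ± 0.17 (adjusted p = 0.00705), a call lost without BtdCPU with thapsigargin replicate 3 (-0.49) or thapsigargin replicate 2 (-0.44). BtdCPU in WT cells lowered 2, Txn1 at -0.49 ± 0.17 (adjusted p = 0.0339) among them, and raised 1. The calls of both lowered genes were lost without any 1 of BtdCPU replicates 1 and 3 and DMSO replicates 1 and 2, and that of the raised gene without any of these or BtdCPU replicate 2. Txn1 was then between -0.38 and -0.46. BtdCPU in PERK -/- cells moved none of the 12 past the threshold (3.59% of all genes were called). In that comparison 1 of the 12 had an unadjusted p under 0.05 in edgeR and DESeq2 called 0.

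The ubiquitin ligases of the NEDD4 family, which bind alpha-arrestins through PPxY motifs, mostly rose with halofuginone in WT cells. Of 9 listed 8 passed the filter, and 6 rose and 1 fell (median 1.18, against 0.00 over all genes). In that comparison 68.2% of all genes were called in either direction. Nedd4l rose at 1.97 ± 0.25 (adjusted p = 3.67e-08) and Smurf1 at 1.42 ± 0.16 (adjusted p = 2.46e-09). Itch, the ligase known for Txnip turnover, rose with thapsigargin in WT cells at 0.79 ± 0.12 (adjusted p = 2.67e-06). Halofuginone in PERK -/- cells raised 3 (6 without halofuginone replicate 2) and lowered none. Over thapsigargin, BtdCPU raised 4 of the 8 in PERK -/- cells and lowered none, with Smurf1 at 1.92 ± 0.16 (adjusted p = 1.60e-10), and halofuginone raised 5 and lowered 1 (52.7% of all genes were called), with Itch at 0.57 ± 0.12 (adjusted p = 1.75e-04). These are transcript levels, and no protein was measured.

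Transcripts of the stress response rose with each of the 3 agents, whereas Txnip was low with BtdCPU. All 7 readouts of eIF2 alpha phosphorylation and ER stress passed the filter. They include Eif2ak3, the gene targeted in PERK -/- cells, which was among those that thapsigargin raised there. Thapsigargin raised 7 of 7 in WT and 6 of 7 in PERK -/- cells, with Ddit3, the gene of the stress factor CHOP, at 4.66 ± 0.24 (adjusted p = 4.49e-16) in WT and 1.20 ± 0.21 (adjusted p = 4.28e-05) in PERK -/- cells. BtdCPU raised 5 in WT cells (22.2% of all genes were called) and lowered 1, a call lost without BtdCPU replicate 1 or 3. There Trib3, a pseudokinase gene downstream of Atf4, rose at 4.36 ± 0.30 (adjusted p = 3.18e-12) and Ddit3 at 3.14 ± 0.22 (adjusted p = 5.00e-12), in the same libraries in which Txnip was 3.68-fold below its DMSO mean (8.69-fold without BtdCPU replicate 2). BtdCPU in PERK -/- cells raised 4 and lowered none, with Trib3 at 3.47 ± 0.29 (adjusted p = 1.24e-09). Over thapsigargin in PERK -/- cells it raised 6 and lowered none, with Ddit3 at 3.05 ± 0.22 (adjusted p = 7.44e-12), while Txnip was 6.94-fold lower. Halofuginone raised 6 of 7 in each genotype. So Ddit3 was higher with all 3 agents in WT cells, and Txnip was higher with 2 of them and lower with BtdCPU.

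For BtdCPU added to thapsigargin in WT cells few genes were called at all, 2.32% of those tested, with 0 of the 7 stress readouts and 0 of the 5 arrestins among them. At an unadjusted p under 0.05 edgeR had 2 stress readouts and 0 arrestins, and DESeq2 called 0 of either. Replicate numbers paired the libraries in this comparison and in that of halofuginone over thapsigargin in WT cells. With the replicate number as a block, the count of called genes rose from 372 to 2079 for BtdCPU over thapsigargin, and the Txnip difference was -0.53 in place of -0.49. The genotype difference of this response called 20.8% of all genes and that for halofuginone over thapsigargin 32.7%. Among arrestins the first called none higher and 3 lower, with Arrdc3 at -1.14 ± 0.27 (adjusted p = 0.00231), and the second called 1 higher and 3 lower.

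Groups of genes that meet Txnip elsewhere are given briefly. Of 9 tested glucose transporters and hexokinases, thapsigargin raised 3 and lowered 2 in WT and raised 3 and lowered 1 in PERK -/- cells, and Hk2, a hexokinase gene, rose in WT (1.66 ± 0.23, adjusted p = 7.12e-07) and fell in PERK -/- cells (-1.35 ± 0.23, adjusted p = 3.73e-05). Of 8 tested PPAR alpha targets, among which Gm15441 is known from liver, halofuginone raised 3 and lowered 2 in each genotype. Gm15441 was higher with halofuginone in both. Thapsigargin raised 2 and lowered 2 in WT cells, where Gm15441 was higher too. In PERK -/- cells, thapsigargin raised 4 and lowered none, where Gm15441 was higher. There BtdCPU over thapsigargin raised 1 and lowered 4 (median -1.29, against -0.04 over all genes), where Gm15441 was lower. A link was not tested. Pdk4, a pyruvate dehydrogenase kinase gene, was lower in PERK -/- than in WT DMSO libraries (-4.87 ± 0.25, adjusted p = 1.24e-16).

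Over the 12 group means of log2 CPM, 10227 genes whose log2 CPM averaged 2 or more were ranked by their Pearson correlation with each of the 3 genes. These means share libraries, scaling and large treatment effects, so the values describe likeness only. Gm15441 ranked first for Txnip (r = 0.999), with the shared reads described above, and Arrdc4 ranked 79 (r = 0.877). Leaving out the 3 genes themselves, the highest for Txnip were Arf2 (0.958), Tcta (0.954), Mgea5 (0.954), Zfp119a (0.953) and Tigd5 (0.952), and the lowest were Ogt (-0.987), D630045J12Rik (-0.949) and Ddx17 (-0.946). For Gm15441 the same 5 genes were highest, and the lowest were Ogt (-0.984), D630045J12Rik (-0.946) and Dlg5 (-0.942). Arrdc4 had other neighbours: Dnajb2 (0.981), Otud5 (0.978), Rassf1 (0.976), Pttg1ip (0.974) and Ube2g2 (0.972) were highest, and Plcb3 (-0.985), Gnpat (-0.970) and Acta2 (-0.969) lowest.

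Ogt and Mgea5 encode the enzymes that add O-GlcNAc to proteins and remove it, and they lay at opposite ends of the Txnip ranking. Both were picked by that ranking, so their own tests are no independent evidence of the likeness. Ogt was at 96.9 ± 7.31 CPM (SD over 3 libraries) in WT cells given DMSO, 54.8 ± 1.85 CPM with thapsigargin, 189.8 ± 43.2 CPM with BtdCPU and 31.6 ± 5.24 CPM with halofuginone. In PERK -/- cells the corresponding levels were 89.3 ± 8.40 CPM, 72.6 ± 7.90 CPM, 142 ± 17.3 CPM and 40.7 ± 7.63 CPM, and BtdCPU with thapsigargin held 131 ± 18 CPM. Its group means ran nearly opposite to those of Txnip (Spearman's rho -0.986). Ogt fell with halofuginone in WT cells at -1.62 ± 0.16 (adjusted p = 2.47e-10) and rose with BtdCPU over thapsigargin in PERK -/- cells at 0.85 ± 0.16 (adjusted p = 6.71e-05). Mgea5 rose from 106 ± 7.28 CPM to 467 ± 66.8 CPM with halofuginone in WT cells, at 2.14 ± 0.16 (adjusted p = 2.53e-13), and fell with BtdCPU over thapsigargin in PERK -/- cells at -0.67 ± 0.15 (adjusted p = 7.07e-04).

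**Figure D5:**
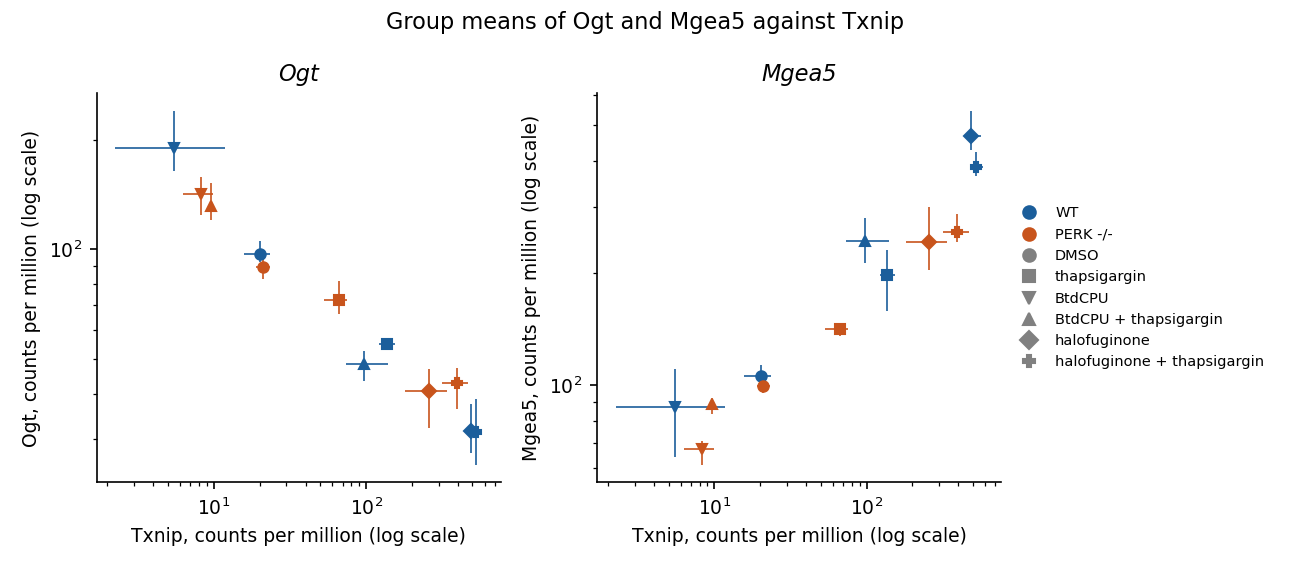
Ogt (left) and Mgea5 (right) against Txnip in CPM, on log axes; each of the 12 points is a group mean and the bars run from the lowest to the highest of its 3 libraries, with genotype by colour. Ogt runs down from WT BtdCPU to WT halofuginone with thapsigargin as Txnip runs up, and Mgea5 runs up with Txnip.

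Among the neighbours of Txnip and Arrdc4 some transcripts were higher and some lower with halofuginone. On the lower-coordinate side of Txnip the nearest tested genes in the annotation were Gm20627 and Fcgr1, an Fc receptor gene of myeloid cells. Fcgr1 had 1, 0 and 0 counts in WT DMSO libraries, 35, 43 and 17 with thapsigargin, 0, 0 and 0 with BtdCPU and 65, 73 and 178 with halofuginone. Fcgr1 in PERK -/- cells had 1, 2 and 0 counts with DMSO, 0, 0 and 1 with thapsigargin and 3, 3 and 6 with halofuginone. These WT counts were high in the treatments in which Txnip was high, and the part of other cells in them was not tested. Of the leukocyte markers, Csf1r reached 19.1 CPM and Ptprc 0.956 CPM in their highest libraries. The 5 macrophage and leukocyte markers summed to 2.23 to 4.35 CPM with halofuginone in WT cells, against 4.13 to 4.63 CPM with DMSO. Their sum was 14.3 to 22.9 CPM with BtdCPU and thapsigargin in PERK -/- cells, where Fcgr1 had 0, 0 and 1 counts.

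On the other side of Txnip, Polr3gl, a subunit gene of RNA polymerase III, fell with halofuginone in WT cells at -0.94 ± 0.21 (adjusted p = 2.21e-04), and Ankrd34a at -1.41 ± 0.26 (adjusted p = 1.68e-05), while Txnip was 24.2-fold higher. Beside Arrdc4, Igf1r, the receptor gene of insulin-like growth factor, rose with halofuginone in WT cells at 1.26 ± 0.22 (adjusted p = 7.82e-06). Nr2f2, a nuclear receptor gene on the other side, fell in WT cells at -0.53 ± 0.15 (adjusted p = 0.00279), while Arrdc4 was 15.1-fold higher. In PERK -/- cells, where Arrdc4 was 7.66-fold higher, Nr2f2 rose at 0.51 ± 0.15 (adjusted p = 0.00681), a call lost without PERK -/- DMSO replicate 2 (0.41). The genotype difference of the Nr2f2 response was 1.04 ± 0.21 (adjusted p = 3.42e-04).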

How the data were processed

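RNA of 36 libraries of mouse embryonic fibroblasts was measured, 3 libraries in each of 12 groups set by genotype and agent as given in the sample labels. Per the labels' protocols, total RNA went through ribosomal depletion, mRNA selection and a strand-specific library kit. The deposited table holds estimated counts per gene made by the authors; the submitters' processing notes name the build GRCm39 and the tool DESeq, and the aligner, the counter and its use of strand are not given in the sources used here. The value 0.025 stood for a count of 0 (50.6% of values), and 2.68% of the other values were not whole, so counts were rounded for the tests. Of 36930 entries, 27 were gene names turned into dates (at most 0.278% of a library) and 39 repeated symbols were summed, which left 36856 symbols. Libraries totalled 32454257 to 37178107 counts.

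A single edgeR 4.0.16 quasi-likelihood model (robust, TMM scaling, filterByExpr, 12 group means, 24 residual degrees of freedom, limma 3.58.1, R 4.3.3) was fitted to 16065 genes, with 16 contrasts and Benjamini-Hochberg adjustment under 0.05. CPM used TMM-scaled library sizes, and log2 CPM a prior count of 2. Tables and figures were made with Python 3.11.15, pandas 2.3.3, numpy 2.4.6 and matplotlib 3.10.9. The fit was tested on simulated data. The genes described and the 10 lists were chosen with earlier results of these data known. From a list at most the 4 called genes with the largest absolute log2 difference were named in a contrast, plus Txn1, Txnrd1, Mlxip, Mlx, Arrdc2 and Arrdc3. For likeness the 5 highest and 3 lowest genes were named for each member, and the nearest 2 tested genes on each side of Txnip and Arrdc4. Replicate numbers were checked for pairing by the correlation of same-numbered deviations from group means. Every pair was over 0.1 in only 2 comparisons, both in WT cells: BtdCPU with thapsigargin against thapsigargin (0.159 to 0.337) and halofuginone with thapsigargin against thapsigargin (0.162 to 0.308). The alternatives were DESeq2 1.42.0, its size factors in edgeR, library size alone, library size without the 10 highest genes, no filter on low counts, only the groups compared, Txnip and Gm15441 added together, a replicate block and leaving out each of the 36 libraries. Promoter sequences came from RefSeq tables of GRCm38.p6 and exons from GENCODE M21 (GRCm38), so no position was joined to the counts, only gene symbols.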

Additional observations from a re-analysis of the deposited data

Results flagged for a closer look

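The response to BtdCPU with thapsigargin against DMSO went in opposite directions in the 2 genotypes for Txnip and Gm15441. Every WT library given both agents was above every WT DMSO library, and every PERK -/- library given both was below every PERK -/- DMSO library. The PERK -/- response minus the WT response was -3.39 on the log2 scale for Txnip and -3.56 for Gm15441. These differences were not tested, and the 2 genes share reads.

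For Txn1, Txnrd1, Mlxip, Mlx, Arrdc2 and Arrdc3, the 6 list genes followed in every comparison, 7 responses differed between genotypes by the edgeR interaction test (PERK -/- minus WT, log2). Other list genes were called there too, such as 6 of the 7 stress readouts, lower for thapsigargin. For thapsigargin these were Txn1, cytosolic thioredoxin, at 0.90, and Txnrd1, its reductase, at -0.65. For halofuginone it was Arrdc3 at -1.02, and for BtdCPU over thapsigargin Arrdc3 again at -1.14. For halofuginone over thapsigargin these were Txnrd1 at 0.97, Arrdc2 at -1.38 and Arrdc3 at -0.98. No outlier test was run on groups of 3 libraries.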

How the results depend on the processing

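For Txnip, Gm15441 and Arrdc4 in the 16 contrasts, 1 difference changed sign under an alternative: that of Txnip between genotypes under DMSO, near 0 with all libraries (0.05), ran from -0.10 to 0.17 with 1 library left out and was below 0 without WT DMSO or PERK -/- DMSO replicate 3. With all libraries, 350 of 352 alternative values for the 3 genes stayed within the spread between replicates. The exceptions were the genotype difference for halofuginone over thapsigargin in Arrdc4 (1.46), which was 1.53 with no filter on low counts and 1.55 with library size without the 10 highest genes.

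With 1 library left out, 367 of 378 values stayed within that spread. For BtdCPU against DMSO in WT cells the range was -3.12 to -1.50 for Txnip and -2.42 to -1.30 for Gm15441, and for its genotype difference 0.15 to 1.77 and 0.0585 to 1.18, with WT BtdCPU replicate 2 at the far end of each. For the genotype difference of BtdCPU over thapsigargin the range was -2.43 to -1.90 for Txnip, -2.67 to -2.12 for Gm15441 and 0.15 to 0.65 for Arrdc4, each ending without WT BtdCPU with thapsigargin replicate 2. For Arrdc4 it was also -0.57 to -0.50 for BtdCPU over thapsigargin and 2.68 to 2.74 for halofuginone over thapsigargin in PERK -/- cells, and 1.41 to 1.55 for the genotype difference of the latter.

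Counts of called genes moved by over 1.5 times only in the 4 comparisons with BtdCPU that follow. For BtdCPU in WT cells (3571) the count was 5534 with the replicate block, 835 with only the groups compared and 1780 to 5062 with 1 library left out. For BtdCPU over thapsigargin in WT cells (372) it was 2079 with the block, 813 with no filter, 23 with only the groups compared, 866 with DESeq2 and 41 to 331. For BtdCPU in PERK -/- cells (577) it was 1577 with the block, 1265, 877 with DESeq2 and 326 to 405. For the genotype difference in the response to BtdCPU (32) it was 587 with the block, 314 with no filter, 2, 161 with DESeq2 and 14 to 845, the last without WT BtdCPU replicate 2. The causes were not tested. Outside the paired comparisons not every same-numbered correlation of deviations passed 0.1, and some did. For BtdCPU against DMSO in WT cells they were 0.0682, 0.254 and 0.287, with at most 0.0384 for pairs of other numbers. For halofuginone against DMSO in PERK -/- cells none passed (0.0125 to 0.0832). Whether same-numbered libraries shared a source was not tested.

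Scaling by library size alone moved the median of all genes from 0.00 to -0.11 for halofuginone in WT cells, from 0.00 to 0.10 for its genotype difference, and from -0.05 to -0.13 for that of BtdCPU over thapsigargin. The share of higher calls went from 58.1% to 45.1% for BtdCPU in WT cells, from 55.9% to 80.8% for BtdCPU over thapsigargin in WT cells and from 51.6% to 41.4% for its genotype difference, and with only the groups compared from 71.1% to 59.5% for BtdCPU in PERK -/- cells. Called list genes lost their call in 61 of 3186 alternatives with all libraries and in 314 of 4044 with 1 left out. Depth limits Arrdc4 most, with 17 counts in its lowest library.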

Other observations

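Further lists touch known regulators and partners of Txnip. Of 10 genes that FOXO factors are known to raise, all passed the filter, and in PERK -/- cells thapsigargin raised 6 and lowered none (27.9% of all genes were called). Among them were Ccng2, a cyclin G gene, at 2.38 ± 0.21 (adjusted p = 3.54e-10) and Sesn3, a sestrin gene that restrains growth signalling, at 1.41 ± 0.13 (adjusted p = 1.00e-09). In WT cells thapsigargin raised 2 of the 10 and lowered 4 (47.6% of all genes were called). Halofuginone in WT cells raised 3 and lowered 5 (68.2% of all genes were called), with Bcl6, a transcriptional repressor gene, at 2.94 ± 0.20 (adjusted p = 8.03e-14) and Pik3ip1, an inhibitor gene of PI3 kinase, at -2.70 ± 0.21 (adjusted p = 1.14e-12). Halofuginone in PERK -/- cells raised 2 and lowered 3 (42.2% of all genes were called). Txnip, itself a known FOXO target, was higher with thapsigargin and with halofuginone in both genotypes. With thapsigargin its log2 difference was 2.76 ± 0.34 in WT and 1.67 ± 0.33 in PERK -/- cells. With BtdCPU over thapsigargin in PERK -/- cells, where Txnip was lower, 1 of the 10 rose and 4 fell (35.6% of all genes were called). The part of FOXO factors in Txnip levels was not tested.

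Of 9 genes of the NLRP3 inflammasome 7 passed the filter. Thapsigargin raised 4 and lowered none in WT cells (47.6% of all genes were called), and halofuginone raised 4 and lowered 1 there (68.2% of all genes). Casp4, the gene of an inflammatory caspase, rose with thapsigargin in WT cells at 2.88 ± 0.26 (adjusted p = 1.23e-10), with halofuginone at 1.75 ± 0.26 (adjusted p = 4.46e-07) and with halofuginone in PERK -/- cells at 2.49 ± 0.29 (adjusted p = 3.98e-08).

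The paired half-sites of the Txnip promoter were found in the windows of 26 gene symbols, of which 15 besides Txnip passed the filter. This list was made after the data had been seen and has no test of its own. With thapsigargin in WT cells 4 of the 15 rose and 4 fell (median log2 difference 0.12, with 47.6% of all tested genes called in either direction), and with halofuginone 5 rose and 5 fell (median -0.04, 68.2% of all genes called). With BtdCPU over thapsigargin in PERK -/- cells, where Txnip was low, 7 rose and 2 fell (median 0.31, 35.6% of all genes called).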
